A study of Oryctolagus cuniculus with 6 samples.

Results

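The miR-99/100 and miR-125 families are microRNAs (miRNAs, small RNAs that guide the silencing of target messenger RNAs) whose genes lie beside let-7 genes. They were followed here in extracellular vesicles, lipid-wrapped parcels shed by cells, from rabbit seminal plasma. Of 7 strands sought by name (miR-99a-5p, miR-99b-5p, miR-100-5p, miR-125a-5p, miR-125b-5p, miR-125b-3p and miR-125b-2-3p), 5 were among the 577 mature miRNAs of the table, and all 5 passed the filter on low values. The other 2, miR-99b-5p and miR-125a-5p, were not analysed here. The animals were sexually mature California x New Zealand white males, 10 to 12 months old, with no treatment named in the labels. From 14 such males, sampled over 1 month (8 ejaculates each), 3 with high and 3 with low seminal quality were carried forward, and the libraries are labelled Fertile (n = 3) and Sub-fertile (n = 3). The grouping rests on semen measurements such as motility and viability, and no record of fertility was used here. Each library is described as a biological replicate from 2.5 mL of seminal plasma, and how many males contributed to each volume is not stated in the sources used here.

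In animals the miR-99/100 strands share their seed, the stretch near the 5′ end that pairs with targets, and miR-125a and miR-125b share another. The miR-125 family is the counterpart of lin-4, which with let-7 times larval development in the worm Caenorhabditis elegans. In human and mouse, genes of these families sit in clusters of a miR-99/100 gene, a let-7 gene and a miR-125 gene. Known human and mouse targets include MTOR, the growth-controlling kinase, for miR-99/100, and LIN28, the RNA-binding protein that blocks let-7 maturation, for miR-125. A miRNA hairpin has a 5p and a 3p arm, of which cells usually keep mainly one as the guide that binds Argonaute. In the RefSeq gene order of the rabbit assembly mOryCun1.1, which is not the build used in the study, MIR99A and MIRLET7C are neighbours on chromosome 4 with MIR125B-2 on the other side of MIRLET7C. MIR100, MIRLET7A-2 and MIR125B-1 follow the same pattern on chromosome 1. The 5p strand of miR-125b can come from both hairpins, and the name miR-125b-2-3p marks the chromosome 4 hairpin.

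The deposited values are counts scaled by library depth and by a factor per library equal to edgeR's TMM factor, here called levels. That factor was 1.24 in Sub-fertile replicate 1 and 0.902 to 1.01 in the others, so levels of that library are lower than with depth scaling alone (plain CPM). Whole counts recovered from them totalled 453675 to 772619 per Fertile library and 129387 to 636929 per Sub-fertile library. Sub-fertile replicate 1 was the shallowest library, with 1 count worth 6.24 units of level against 1.33 to 4.08 in the others. It stood apart from the other 5 libraries on the first principal component, which held 40.5% of the variance of the 234 miRNAs tested. Counting intervals given below cover counting error only and leave out the spread between libraries. They would be too narrow if PCR copies rather than molecules were counted, and which were counted is not stated.

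The families were led by miR-125b-5p. The 5 strands together took 1.72% ± 0.218 of all counts (SD, n = 6), and miR-125b-5p made up 71.6% ± 3.22 of their summed level (SD, n = 6). It ranked 19 of 577 by mean level, followed within the families by miR-99a-5p (rank 36), miR-100-5p (rank 89), miR-125b-2-3p (rank 102) and miR-125b-3p (rank 204). Levels are scaled counts with no correction for length or for how well each miRNA is captured in library preparation, neither of which was checked here, so the order is one of counts. The order held in 6 of 6 libraries for miR-125b-5p over miR-99a-5p, for miR-99a-5p over miR-100-5p and for miR-125b-2-3p over miR-125b-3p. For miR-100-5p over miR-125b-2-3p it held in 5 of 6, the exception being Sub-fertile replicate 1. Over all libraries these neighbours had levels of 436 ± 143 and 272 ± 96.3 (SD, n = 6), a gap close to their spread.

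**Figure D1:**
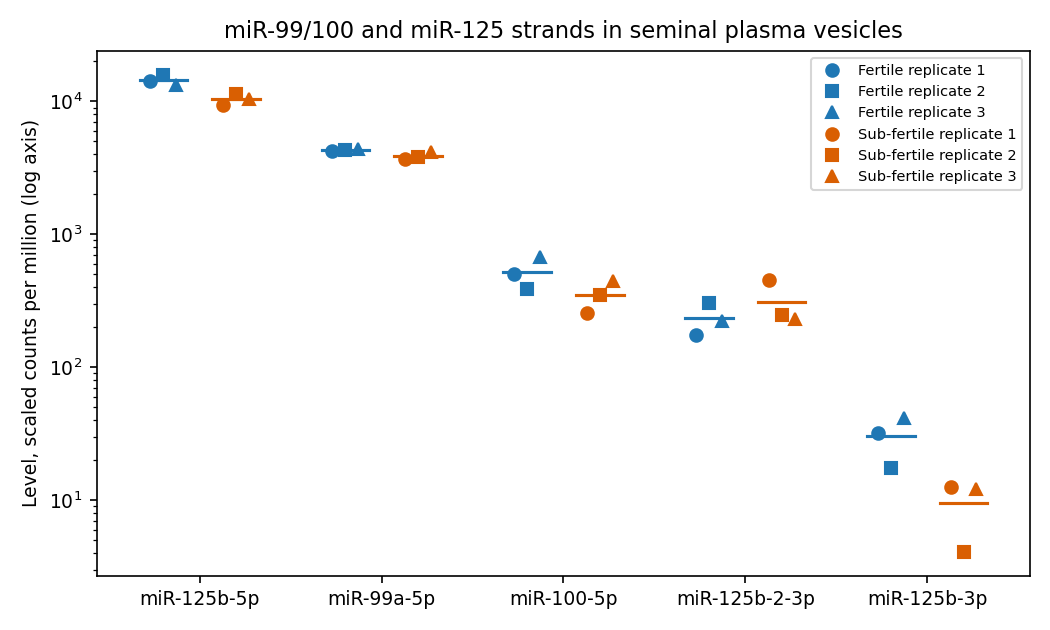
Levels of the 5 strands (log axis, scaled CPM) in each library, with Fertile libraries in blue and Sub-fertile in orange, a marker shape for each replicate number and lines at the group means. The strands span from 15925 for miR-125b-5p to 4.08 for miR-125b-3p, and the groups do not overlap for miR-125b-5p, miR-99a-5p and miR-125b-3p.

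The comparison of Fertile with Sub-fertile vesicles asks which of these strands differ between males parted by semen quality. No strand of the families had a limma adjusted p under 0.05 (Benjamini-Hochberg over 234 miRNAs), where 3.42% of all tested miRNAs did. The lowest adjusted p among them was 0.148, and 2 of 5 had an unadjusted p under 0.05 (limma), where 19.2% of tested miRNAs did. That count was 1 of 5 with plain CPM, median-of-ratios scaling, quantile normalization, no trend, no filter or any 1 Fertile library left out, and 0 of 5 with DESeq2. It was 2 of 5 without Sub-fertile replicate 1, 1 of 5 without Sub-fertile replicate 2 and 3 of 5 without Sub-fertile replicate 3. With edgeR and with DESeq2 on the recovered counts, 0 of 5 passed as well. The fitted change was below 0 in 4 of 5 strands, against 55.6% of tested miRNAs. Their median log2 change (Sub-fertile minus Fertile) was -0.48, against -0.10 over all tested. The Sub-fertile levels lay wholly below the Fertile ones for 3 of 5, against 16.2% of tested miRNAs. Strands of 1 hairpin share their source, so the 5 are not independent of each other. In bulk vesicles, fewer vesicles from a cell type and less of a miRNA per vesicle cannot be told apart.

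The lin-4 counterpart miR-125b-5p stood at 14145, 15925 and 13358 in Fertile replicates 1 to 3 and at 9335, 11392 and 10404 in Sub-fertile replicates 1 to 3. All Sub-fertile libraries were below all Fertile ones, with means of 14476 ± 1315 for the Fertile and 10377 ± 1028 for the Sub-fertile group (SD, n = 3 per group). The log2 change was -0.48 (SE 0.16, 95% interval -0.86 to -0.10), or 1.40-fold lower in Sub-fertile vesicles, with an interval of 1.07 to 1.81. It did not pass after adjustment (limma adjusted p = 0.148, unadjusted p = 0.0184). Under quantile normalization the change was -0.21 and the groups overlapped.

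The highest miR-99/100 strand, miR-99a-5p, stood at 4219, 4342 and 4356 in Fertile and at 3715, 3799 and 4178 in Sub-fertile libraries. The groups did not overlap on the deposited scale but did with plain CPM and with median-of-ratios scaling. The log2 change was -0.15 (SE 0.16, 95% interval -0.50 to 0.21; limma adjusted p = 0.654), close to the median of all tested miRNAs, and with plain CPM it was -0.03. The interval spans from 1.42-fold lower to 1.16-fold higher in Sub-fertile vesicles. Over the 6 libraries the coefficient of variation of miR-99a-5p was 6.75%, against a median of 36.9% for tested miRNAs, and 4 of 234 had a smaller one. With plain CPM it was 7.15% and 0 of 234 had a smaller one. Among the 65 miRNAs with a mean level of at least 1000, where counting error weighs less, the median was 23.7% and 3 had a smaller one. Counting error alone gives 1.78% to 4.10% for miR-99a-5p, depending on the library.

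The second miR-99/100 strand, miR-100-5p, was lower and more variable. Fertile libraries held 503, 391 and 672 and Sub-fertile ones 256, 351 and 444, so the groups overlapped. The log2 change was -0.57 (SE 0.30, 95% interval -1.26 to 0.11; limma adjusted p = 0.336). In human, miR-100-5p and miR-99a-5p differ by very few bases, and how matching reads were assigned here is not given in the sources used.

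The summed level of miR-99a-5p and miR-100-5p, the miR-99/100 seed as measured here, averaged 4828 ± 174 for Fertile and 4248 ± 336 for Sub-fertile (SD, n = 3 per group). The sum was thus 0.880 times as high in Sub-fertile as in Fertile vesicles. For the miR-125 seed, carried here by miR-125b-5p alone, that ratio of group means was 0.717. Sums over the families were not tested.

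The 3p strands of miR-125b, the arm usually not kept by cells, were far below the 5p strand in every library. The strand of the chromosome 4 hairpin, miR-125b-2-3p, stood at 176, 304 and 222 in Fertile and at 449.6, 249 and 231 in Sub-fertile libraries. The highest value was in Sub-fertile replicate 1, while the other Sub-fertile libraries lay within the Fertile range. The log2 change was 0.37 (SE 0.34, 95% interval -0.41 to 1.16; limma adjusted p = 0.592), and without Sub-fertile replicate 1 it was 0.07. The other strand, miR-125b-3p, had levels of 32.0, 17.5 and 41.7 in Fertile libraries against 12.5, 4.08 and 12.2 in Sub-fertile ones. These rested on 24, 9 and 18 counts against 2, 1 and 7, and the groups did not overlap. Pooled over libraries, the 10 Sub-fertile counts against 51 Fertile ones give a ratio of 0.339 after correction for library scaling. Its exact 95% counting interval was 0.154 to 0.676. The fitted log2 change of -1.62 (SE 0.69, 95% interval -3.19 to -0.05), which takes the spread between libraries into account, did not pass (limma adjusted p = 0.251).

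**Figure D2:**
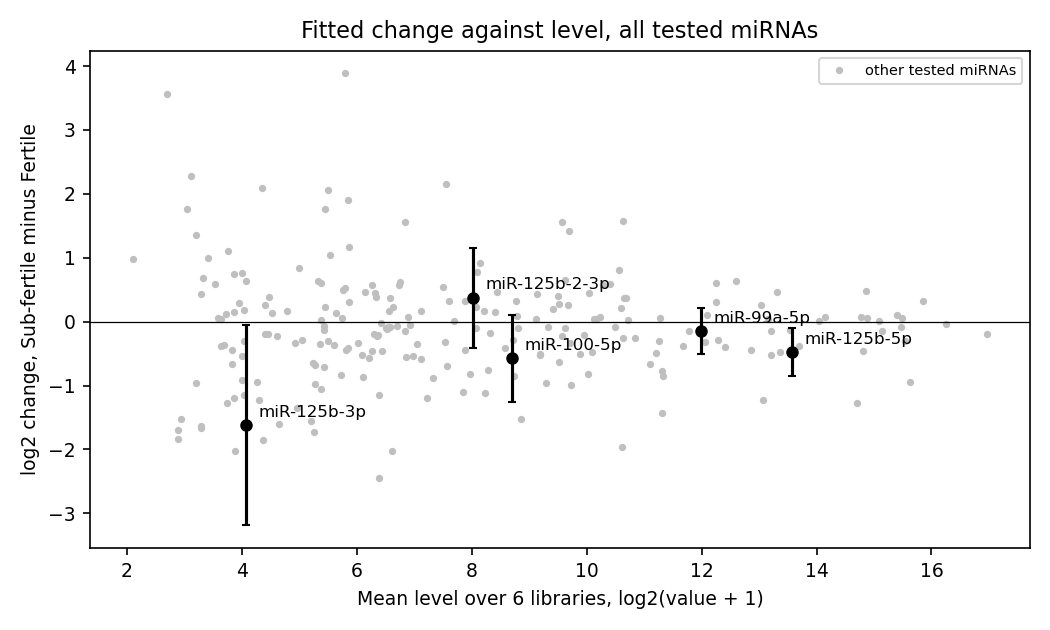
Fitted log2 change (Sub-fertile minus Fertile) against mean level, log2(value + 1), for the 234 tested miRNAs. The 5 strands are in black with 95% limma intervals, and grey points are the other miRNAs; the intervals of miR-125b-5p (-0.86 to -0.10) and miR-125b-3p (-3.19 to -0.05) lie below 0 before adjustment, and none passed after it.

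Ratios of strands within a library do not depend on how libraries were scaled. The chromosome 4 strand exceeded its chromosome 1 relative in every library for the miR-99/100 pair. The ratio of miR-99a-5p to miR-100-5p was 8.40, 11.1 and 6.48 in Fertile libraries against 14.5, 10.8 and 9.42 in Sub-fertile ones, and the groups overlapped. The 3p strands of miR-125b were unequal too. The ratio of miR-125b-2-3p to miR-125b-3p was 5.50, 17.3 and 5.33 in Fertile libraries against 36.0, 61.0 and 19.0 in Sub-fertile ones. These ratios did not overlap between groups, but their counting intervals did. That of Fertile replicate 2 ran from 8.90 to 38.6, and that of Sub-fertile replicate 3 from 8.97 to 48.2. The hairpin that yields miR-125b-3p is not stated in the table, so this ratio is not assigned to chromosomes.

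Within the families, miR-125b-5p and miR-99a-5p differed in how far they were apart in the groups. The ratio of miR-125b-5p to miR-99a-5p was 3.35, 3.67 and 3.07 in Fertile libraries against 2.51, 3.00 and 2.49 in Sub-fertile ones. The Sub-fertile ratios all lay below the Fertile ones, although Fertile replicate 3 (counting interval 2.91 to 3.23) and Sub-fertile replicate 2 (2.78 to 3.23) overlapped within counting error. The ratio of miR-125b-5p to its summed 3p strands was 68.0, 49.6 and 50.6 in Fertile libraries against 20.2, 45.0 and 42.7 in Sub-fertile ones. Again the groups did not overlap, and the lowest ratio was that of Sub-fertile replicate 1. The log2 difference in this arm ratio was -0.71 with all libraries and -0.34 without Sub-fertile replicate 1. These ratios were not tested, and they share miR-125b-5p, so they are not separate observations. How often ratios of other strands part the groups was not counted. Among single tested miRNAs, 16.2% lay wholly lower and 9.4% wholly higher in Sub-fertile libraries.

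**Figure D3:**
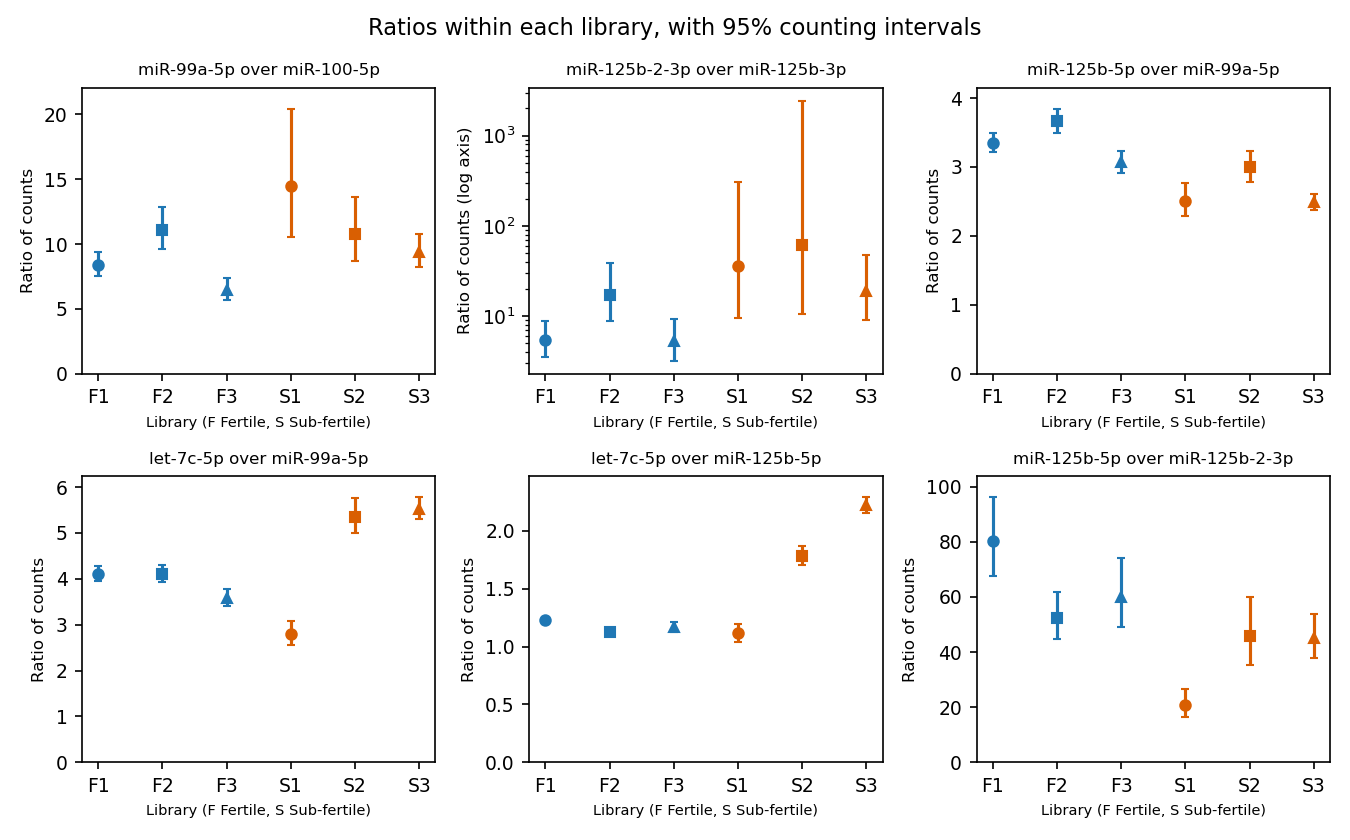
Ratios of counts of named strands within each library (F Fertile in blue, S Sub-fertile in orange) with exact 95% counting intervals; the panel of miR-125b-2-3p over miR-125b-3p has a log axis and the others are linear from 0. The ratio of let-7c-5p to miR-125b-5p is 1.12 to 1.23 for Fertile replicates 1 to 3 and Sub-fertile replicate 1, and 1.79 and 2.22 for Sub-fertile replicates 2 and 3.

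The let-7 strands of the same clusters were more abundant than their neighbours. Of the 3 strands in this list, let-7a-5p and let-7c-5p were tested and 0 passed (limma, 0 at an unadjusted p under 0.05). Among let-7 strands of these clusters, let-7c-5p is the one with a gene of its own in the rabbit table, where let-7a has 3 genes. Its level was 17340, 17864 and 15635 in Fertile libraries against 10422, 20349 and 23106 in Sub-fertile ones. Sub-fertile libraries lay on both sides of the Fertile ones, with replicate 1 lowest. The log2 change of let-7c-5p was 0.01 (SE 0.29; limma adjusted p = 0.985), with a sign that turned to -0.0326 without the 5 most abundant miRNAs. For let-7a-5p it was -0.04 (SE 0.27; limma adjusted p = 0.937), which turned to 0.0770 with plain CPM and 0.0378 with median-of-ratios scaling.

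Although let-7c and miR-99a are neighbours, their ratio was not constant. The ratio of let-7c-5p to miR-99a-5p was 4.11, 4.11 and 3.59 in Fertile, 2.81 in Sub-fertile replicate 1, and 5.36 and 5.53 in Sub-fertile replicates 2 and 3. The counting intervals of the last 2, from 4.99 to 5.75 and from 5.29 to 5.78, lay above those of every Fertile library, whose highest bound was 4.31. The ratio of let-7c-5p to miR-125b-5p was 1.23, 1.12 and 1.17 in Fertile libraries against 1.12, 1.79 and 2.22 in Sub-fertile ones. Sub-fertile replicate 1, the shallowest library, had the lowest value of both ratios. Its ratio of let-7c-5p to miR-125b-5p, 1.116, was nonetheless close to the 1.122 of Fertile replicate 2. The part of its depth and of its place apart from the others was not tested. Of the 6 other let-7 5p strands, 0 passed and the median log2 change was 0.24. Their groups did not overlap for 2 of 6, let-7g-5p and let-7i-5p, both higher in Sub-fertile vesicles (9.4% of tested miRNAs did so). Both are named after their values were seen.

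Opposite strands of the clusters were scarce. Of 8 sought, 5 were listed, 4 were above 0 in some library and 2 were tested, of which 0 passed (limma, 0 at an unadjusted p under 0.05). The strand miR-99a-3p, from the hairpin of miR-99a-5p, stood at 34.7, 50.6 and 51.0 in Fertile and at 144, 57.2 and 31.3 in Sub-fertile libraries. Its highest value was again in Sub-fertile replicate 1, on 23 counts. The log2 change was 0.50 (SE 0.57; limma adjusted p = 0.680) and turned to -0.0767 without that library. The strand let-7a-3p had a log2 change of -0.30 (SE 0.50; limma adjusted p = 0.813). The ratio of miR-99a-5p to miR-99a-3p ranged from 85.5 to 122 in Fertile and from 25.9 to 133 in Sub-fertile libraries. For miR-100-3p, 2 counts were found in Fertile replicate 3, 1 in Sub-fertile replicate 3 and 0 elsewhere. For let-7a-2-3p there were 0 counts in every library, which leaves room for up to 3 counts, or 18.7 units of level in the shallowest library.

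The strands nearest in sequence outside the families, miR-10a-5p and miR-10b-5p, come from the HOX gene clusters and belong to the same ancient miRNA family as miR-99/100. Both were tested and 0 passed, with log2 changes of -0.08 (SE 0.25; limma adjusted p = 0.877) and -0.31 (SE 0.26; limma adjusted p = 0.554). The first turned to 0.0376 with plain CPM, 0.0511 with quantile normalization and 0.0570 with DESeq2. Their summed level was 90657 to 109566 in Fertile libraries and 58305 to 110259 in Sub-fertile ones, where that of the 5 strands of the miR-99/100 and miR-125 families was 18650 to 20980 and 13769 to 15795.

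The tested miRNAs most like miR-125b-5p by Pearson's r of log2(value + 1) over the 6 libraries were miR-676-3p (r = 0.971), miR-191-5p (r = 0.967) and miR-182-5p (r = 0.963). Those most like miR-99a-5p were miR-185-5p (r = 0.986), miR-660-5p (r = 0.966) and miR-146b-5p (r = 0.949). These values are a description of the same 6 libraries, which share their depth and scaling, and they were picked as the highest of all tested miRNAs. The Sub-fertile levels of miR-676-3p, miR-191-5p and miR-182-5p lay wholly below the Fertile ones, against 16.2% of tested miRNAs. For miR-191-5p they were 31454, 35532 and 33743 in Fertile against 23111, 26509 and 24037 in Sub-fertile libraries. Picked for following miR-125b-5p, whose groups did not overlap, they give it no separate support. Among them miR-676-3p passed (limma adjusted p = 0.0181). Of those picked for miR-99a-5p, miR-185-5p and miR-660-5p also lay wholly below, and miR-146b-5p overlapped.

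Markers of the cells that could release vesicles were read from lists. Of 8 epithelial markers 4 were listed, led by miR-200c-3p and miR-141-3p, and their summed level was 99992 to 107326 in Fertile and 86798 to 139601 in Sub-fertile libraries. The sum is carried by these leading markers. Of the 4 tested, 0 passed, 2 had a fitted change above 0 and 2 below. An unadjusted p under 0.05 (limma) was found for 1 of 4, where 19.2% of tested miRNAs had one. The groups overlapped for 3 of 4, with log2 changes of 0.06 (miR-200c-3p), 0.11 (miR-141-3p) and -0.13 (miR-205-5p). The remaining member, miR-375-3p, was named after its values were seen. It stood at 3320, 3323 and 3341 for Fertile and at 3185, 1393 and 1681 for Sub-fertile replicates 1 to 3. Its Sub-fertile levels lay wholly below the Fertile ones, as for miR-125b-5p and for 16.2% of tested miRNAs. It did not pass with all libraries (limma adjusted p = 0.203). Without Sub-fertile replicate 1 it did (limma adjusted p = 0.000261, with 0.000261 to 0.455 over the alternatives), where 39 of 234 tested miRNAs passed. Its Fertile levels had an SD of 11.4 around a mean of 3328. The part of this narrow spread in that adjusted p was not tested. Of 6 markers of stroma and smooth muscle 5 were listed, with miR-145-5p and miR-214-3p at 0 in every library. Their sum, mostly from miR-199a-3p, was 105 to 165 in Fertile and 127 to 244 in Sub-fertile libraries. Within that list miR-143-3p, a smooth muscle marker, had 1, 1 and 0 counts in Fertile and 9, 3 and 8 in Sub-fertile libraries. Its levels of 0 to 1.95 and 12.3 to 56.2 did not overlap, where 9.4% of tested miRNAs were wholly higher in Sub-fertile libraries. It did not pass (limma adjusted p = 0.0921; 0.0237 with DESeq2, and 0.0237 to 0.302 over the alternatives). Of the 2 stroma and smooth muscle markers tested, 0 passed with limma. The other one, miR-199a-3p, overlapped between the groups, at 93.4 to 162 in Fertile and 103 to 181 in Sub-fertile libraries. The 5 leukocyte markers, led by miR-223-3p and miR-150-5p, summed to 252 to 595 in Fertile and 324 to 699 in Sub-fertile libraries. Of these 5, 0 passed and 4 had a fitted change above 0 (104 of 234 tested miRNAs did), with miR-150-5p below 0. An unadjusted p under 0.05 (limma) was found for 1, miR-142-3p (19.2% of tested miRNAs). Named after its values were seen, it stood at 32.0 to 51.0 in Fertile and 53.1 to 156 in Sub-fertile libraries. Its groups did not overlap (9.4% of tested miRNAs were wholly higher). Of 4 red cell markers 3 were listed, with miR-144-3p at 0 in every library, and their sum was 12.0 to 37.1 and 6.24 to 20.4, led by miR-486-5p. The 5 germ cell and ciliated cell markers, led by miR-508-3p and miR-34c-5p, summed to 9339 to 11291 in Fertile and 11669 to 22717 in Sub-fertile libraries. Both leading markers overlapped between the groups, and the highest sum, in Sub-fertile replicate 1, held 11502 of miR-34c-5p, against 772 to 1842 in the other libraries. Of the 4 tested, 0 passed and 4 had a fitted change above 0, where 104 of 234 tested miRNAs did. An unadjusted p under 0.05 (limma) was found for 2 of 4, where 19.2% did. The groups did not overlap for 1, miR-449a-5p, named after its values were seen (9.4% of tested miRNAs were wholly higher). It stood at 438 to 570 in Fertile and 618 to 3909 in Sub-fertile libraries. The part of these markers in the values of miR-125b-5p was not tested.

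**Figure D4:**
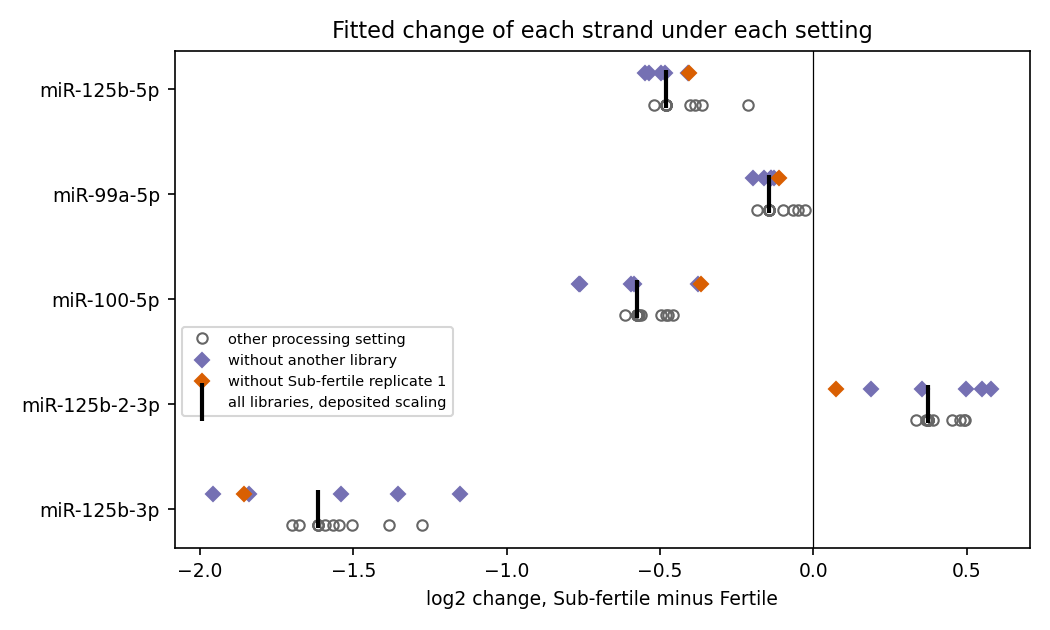
Fitted log2 change (Sub-fertile minus Fertile) of each strand with all libraries (black bar), under other processing settings (open circles) and with 1 library left out (diamonds, orange for Sub-fertile replicate 1). Every strand keeps its sign, which settings that change only the filter, the trend or the block could not turn. The change of miR-125b-5p ranges from -0.55 to -0.21 and that of miR-125b-2-3p from 0.07 to 0.58.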

How the data were processed

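Vesicles were isolated by ultracentrifugation and size exclusion chromatography and small RNA was prepared with the QIAseq kit, per the labels' protocols. The submitters' processing notes name bcl2fastq, Bowtie2 2.2.2, DESeq2 and OryCun2.0, with no role given. The deposited values are a normalized signal, named CPM by the authors, with column totals of 807952 to 1108265. All values (100%) were whole multiples of the smallest in their library (tolerance 1e-06), so whole counts were recovered; the scaling equals edgeR's TMM factors. The sources used here do not say whether reads or molecular identifiers were counted.

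limma 3.58.1 (R 4.3.3, mean-variance trend, two-sided) was fitted to log2(value + 1), which understates changes of low miRNAs, for the 234 miRNAs with at least 10 in at least 3 libraries, Benjamini-Hochberg adjusted with a threshold of 0.05. It was tested on simulated data. Counts were also tested with edgeR 4.0.16 and DESeq2 1.42.0; edgeR called 8 miRNAs, as did limma. Intervals on ratios of counts are exact binomial (Clopper-Pearson, 95%). Libraries of 1 group differed beyond sampling noise (chi-square over its degrees of freedom at least 14.2). P-values set the group difference against the spread between these libraries, which limma estimates partly from the other miRNAs. The families and lists were chosen with earlier results of these data known. Named miRNAs were the family strands, let-7 strands, tested opposite strands, miR-10a-5p, miR-10b-5p, the 3 miRNAs most like each leading 5p strand, and up to 2 highest markers per list.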

Additional observations from a re-analysis of the deposited data

How the results depend on the processing

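Across the alternatives run, the 5 strands kept the sign of their change and stayed short of an adjusted p of 0.05 in 89 of 89 refits. Many of these refits could not have turned a sign. Changing only the filter, the trend or the block leaves the fitted change as it was. Leaving out 1 library cannot turn it for miR-125b-5p, miR-99a-5p and miR-125b-3p, whose groups did not overlap on the deposited scale. For miR-125b-5p the adjusted p ranged from 0.0666 (without Sub-fertile replicate 1) to 0.478 (DESeq2). Without 1 library, the change of miR-100-5p ranged from -0.76 to -0.37 and that of miR-125b-3p from -1.96 to -1.15. The latter could not be tested with a filter at 100. The count over all miRNAs, 8 with limma, was 14 with a filter at 100, 5 with quantile normalization, 1 without a trend, 17 with DESeq2, and from 3 (without any 1 Fertile library) to 39 (without Sub-fertile replicate 1). With the replicate number as a block 0 passed, and limma's unadjusted p was under 0.05 for 43. The labels do not say that replicate numbers pair the males, so the numbers were not taken as pairs. Deviations of libraries that share a number correlated at 0.045, -0.116 and 0.105. Those of libraries with different numbers correlated at -0.163 to 0.119, so these values cannot decide whether the numbers pair libraries. The median change of all tested miRNAs moved from -0.10 to 0.02 with plain CPM and 0.06 with DESeq2. The log2 ratio of summed miR-99a-5p and miR-100-5p, -0.18, was -0.0660 with plain CPM. The Sub-fertile levels lay wholly below the Fertile ones for 2 of 5 strands with plain CPM (12.0% of tested miRNAs) and with median-of-ratios scaling (13.2%), and for 1 of 5 with quantile normalization (13.2%). The sign of let-7a-5p turned with median-of-ratios scaling (0.0378), plain CPM (0.0770), edgeR (0.0266) and DESeq2 (0.11), and ranged from -0.22 to 0.29 without 1 library. That of miR-10a-5p turned with plain CPM (0.0376), quantile normalization (0.0511) and DESeq2 (0.0570), with a range of -0.22 to 0.21. That of let-7c-5p turned to -0.0326 without the 5 most abundant miRNAs, with a range of -0.22 to 0.36, and miR-99a-3p ranged from -0.0767 to 1.00. The cause was not tested. Among the 5 strands depth limits miR-125b-3p most, with 1 to 7 counts per Sub-fertile library.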
